A study of Mus musculus with 13 samples.

Results

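Acot5, Acox2, Pnpla5, Pctp, St3gal5 and Fbp1 are 6 genes of lipid and sugar metabolism whose transcripts were among the most increased in mouse epidermal keratinocytes after Aldara cream. They were chosen from 25746 genes in a table of raw read counts for their large increases after Aldara in both genotypes studied. Their Aldara effects are therefore given here as a description. Calls made on these effects are printed beside the shares of all genes called, and are not read as a test. For the 6 genes, tests are kept for the genotype comparisons, which did not enter the choice. Of the 25746 genes, 16051 had enough counts to be tested, and all 6 were among them.

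The cells were keratinocytes of the interfollicular epidermis, which covers the skin outside the hair follicles, sorted by FACS from skin of C57/BL6 mice and measured in bulk by RNA sequencing. There were 13 libraries in 4 groups. In the Il12rb2-deleted groups, K14Cre/+ Il12rb2fl/fl mice carried a Cre recombinase driven by the keratin K14 promoter together with floxed alleles of Il12rb2, a subunit of the interleukin-12 receptor, and gave 3 libraries after 1 day of Aldara and 4 untreated libraries. In the floxed control groups, Il12rb2fl/fl mice carried the same floxed alleles without Cre and gave 3 libraries after 1 day of Aldara and 3 untreated libraries. Aldara holds 5% imiquimod, which activates a Toll-like receptor, and its use on mouse skin is a model of psoriasis-like inflammation. The series asks how interleukin-12 acts through keratinocytes in this inflammation. The age of the mice is not given in the sources used here, and neither a vehicle cream group nor a group with Cre alone was analysed here. Replicates are numbered, but no label ties each one to its own mouse. The p-values therefore rest on the spread among these samples alone, and part of that spread may be technical.

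As background, the products of these genes act at several points of lipid and sugar use. Acot5 is an acyl-CoA thioesterase of mouse peroxisomes, which splits fatty acyl-CoA into free fatty acid and coenzyme A, and Acox2 is the peroxisomal oxidase that starts the breakdown of branched-chain acyl-CoA and of bile acid intermediates. Pnpla5 is a patatin-like lipase that acts on triglyceride in lipid droplets, Pctp is the cytosolic START domain protein that carries phosphatidylcholine between membranes, St3gal5 is the sialyltransferase that makes GM3, the first ganglioside of its pathway, and Fbp1 is fructose bisphosphatase, which removes a phosphate from fructose bisphosphate in gluconeogenesis. In skin, such pathways serve the lipids of the epidermal barrier and of sebum, the secretion of sebaceous glands.

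The 6 genes lie on 6 different chromosomes. In build GRCm38, Acot5 spans 84069325 to 84076020 on the plus strand of chromosome 12, inside a run of related genes in the order Acot2, Acot1, Acot4, Acot3, Acot5 and Acot6. Acox2 spans 8225511 to 8259353 on the minus strand of chromosome 14, and Pnpla5 spans 84112356 to 84123175 on the minus strand of chromosome 15. Pctp spans 89982665 to 90002894 on the minus strand of chromosome 11, St3gal5 spans 72097592 to 72154571 on the plus strand of chromosome 6, and Fbp1 spans 62864753 to 62888282 on the minus strand of chromosome 13. No exon of the 6 overlapped an exon of another annotated gene. Of the 1419 windows of 100 bases in the longest Acot5 transcript, 8.32% also occurred in Acot1, Acot3, Acot4, Acot6 or 4732463B04Rik, so a small part of the Acot5 count may depend on how reads of several origins were assigned. The other 5 genes shared no such window.

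The promoters of the 6 genes were searched for known motifs, and 3 are shown. These are Acot5, whose window had the lowest GC content, St3gal5, whose window had the highest, and Pctp, the gene with the largest genotype difference. That all 6 were higher after Aldara follows from how they were chosen, and whether they share regulation was not tested. Each window runs from 250 bases before to 50 bases after the RefSeq start in build GRCm38.p6, written in the direction of the gene. They are chr12:84069074-84069373 on the plus strand for Acot5, chr11:90002845-90003144 on the minus strand for Pctp, and chr6:72097358-72097657 on the plus strand for St3gal5. Capitals mark AGGTCA, the hexamer bound by nuclear receptors such as the PPAR and RXR factors, and GGGCGG, the GC box, on either strand.
Acot5: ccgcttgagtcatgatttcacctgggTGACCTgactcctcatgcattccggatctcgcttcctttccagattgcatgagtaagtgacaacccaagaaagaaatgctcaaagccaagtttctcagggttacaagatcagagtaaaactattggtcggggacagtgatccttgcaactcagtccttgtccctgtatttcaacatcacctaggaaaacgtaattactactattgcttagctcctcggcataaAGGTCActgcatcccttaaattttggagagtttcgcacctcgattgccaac
Pctp: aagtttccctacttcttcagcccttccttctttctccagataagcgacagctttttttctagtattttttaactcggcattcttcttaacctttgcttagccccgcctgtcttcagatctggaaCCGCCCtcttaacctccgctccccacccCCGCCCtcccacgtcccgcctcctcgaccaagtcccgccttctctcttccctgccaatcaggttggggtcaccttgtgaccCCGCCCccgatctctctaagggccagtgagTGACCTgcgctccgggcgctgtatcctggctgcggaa
St3gal5: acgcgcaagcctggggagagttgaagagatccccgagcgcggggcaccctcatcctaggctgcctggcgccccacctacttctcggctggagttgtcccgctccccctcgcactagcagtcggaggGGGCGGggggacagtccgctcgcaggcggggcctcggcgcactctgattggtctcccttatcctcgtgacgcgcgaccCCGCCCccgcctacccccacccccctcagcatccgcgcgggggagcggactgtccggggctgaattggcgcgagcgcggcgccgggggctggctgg

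Of the motifs searched, CCAAT was found in a window of each of the 6 genes. It occurred 2 times each in St3gal5 and Pnpla5, 1 time each in Acot5, Pctp and Fbp1, and 1 time in Acox2, in the window of its second RefSeq start and not in that of its first. These letters were present in 37.4% of all windows. The hexamer AGGTCA occurred in Acot5, 2 times, and in Pctp, 1 time, and it was present in 16.3% of the 32851 RefSeq windows of this length. GGGCGG occurred in Pctp, 3 times, in St3gal5, 2 times, and 1 time each in Fbp1 and Pnpla5, against 35.7% of all windows. The AP-1 site TGANTCA, where N is any base, occurred in Acot5 and Acox2, against 7.81% of all windows. No window of the 6 genes held TATAAA, TTCNNNGAA, TCACNCCAC or a direct repeat of AGGTCA with 1 base between its copies, which were found in 13.6%, 8.3%, 1.24% and 0.0396% of all windows in that order. GC content was 45.3% in Acot5 and 72.7% in St3gal5, against a median of 52.7% over all windows. These are matches of letters on both strands, not measured binding sites.

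Total counts per library ran from 5830034 to 22232478. The level used below is CPM, the count of a gene scaled to library size after TMM normalization. Il12rb2 itself was at 0 to 1.64 CPM in Il12rb2-deleted and 1.98 to 8.14 CPM in floxed control cells after Aldara, and at 8.52 to 25.6 CPM in Il12rb2-deleted and 17.1 to 78.8 CPM in floxed control untreated cells. Its deletion log2 differences, -2.14 after Aldara and -1.38 untreated, did not pass the test (edgeR adjusted p = 0.982 and 1). The genotypes did not overlap in Il12rb2 after Aldara and overlapped untreated. Which exons are floxed is not given in the sources used here, and how completely the gene was deleted in these cells was not tested. Replicate 1 of the Il12rb2-deleted Aldara group stood apart from the others on the first principal component of all genes, at -159.5, while the remaining Aldara libraries lay at -38.25 to -62.98. The 3 libraries with over 5% of counts in the predicted gene Gm10800 were replicates 1 and 2 of the Il12rb2-deleted untreated group (5.211% and 10.35%) and replicate 2 of the floxed control untreated group (14.17%).

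All 6 genes were low in untreated keratinocytes and higher after Aldara in every library of both genotypes. In Il12rb2-deleted cells the log2 difference between Aldara and untreated libraries ran from 2.74 to 5.66 with a median of 4.92, beside a median of -0.0946 over all 16051 genes. In floxed control cells it ran from 2.58 to 5.2 with a median of 3.9, beside -0.127 over all genes. For none of the 6 did the CPM values of Aldara and untreated libraries overlap in either genotype, while 29% of all genes had no overlap in Il12rb2-deleted cells, 14.2% being higher and 14.8% lower, and 27.8% in floxed control cells, 13.1% higher and 14.7% lower. The edgeR call, an adjusted p under 0.05 over all genes, covered 6 of 6 in Il12rb2-deleted cells, where 15.5% of all genes were called, 7.81% higher and 7.69% lower, and 5 of 6 in floxed control cells, where 7.05% were called, 4.15% higher and 2.9% lower. In floxed control cells Acox2, the gene not called, was also not called in 15 of 18 alternative fits. There St3gal5 lost its call in 6 of the 18, Fbp1 and Pnpla5 in 5 each, Pctp in 4 and Acot5 in 0. In Il12rb2-deleted cells Pnpla5 lost its call in 7 of the 18 and Fbp1 in 1. Since the genes were picked on these contrasts, nothing is read from these calls and counts.

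**Figure D1:**
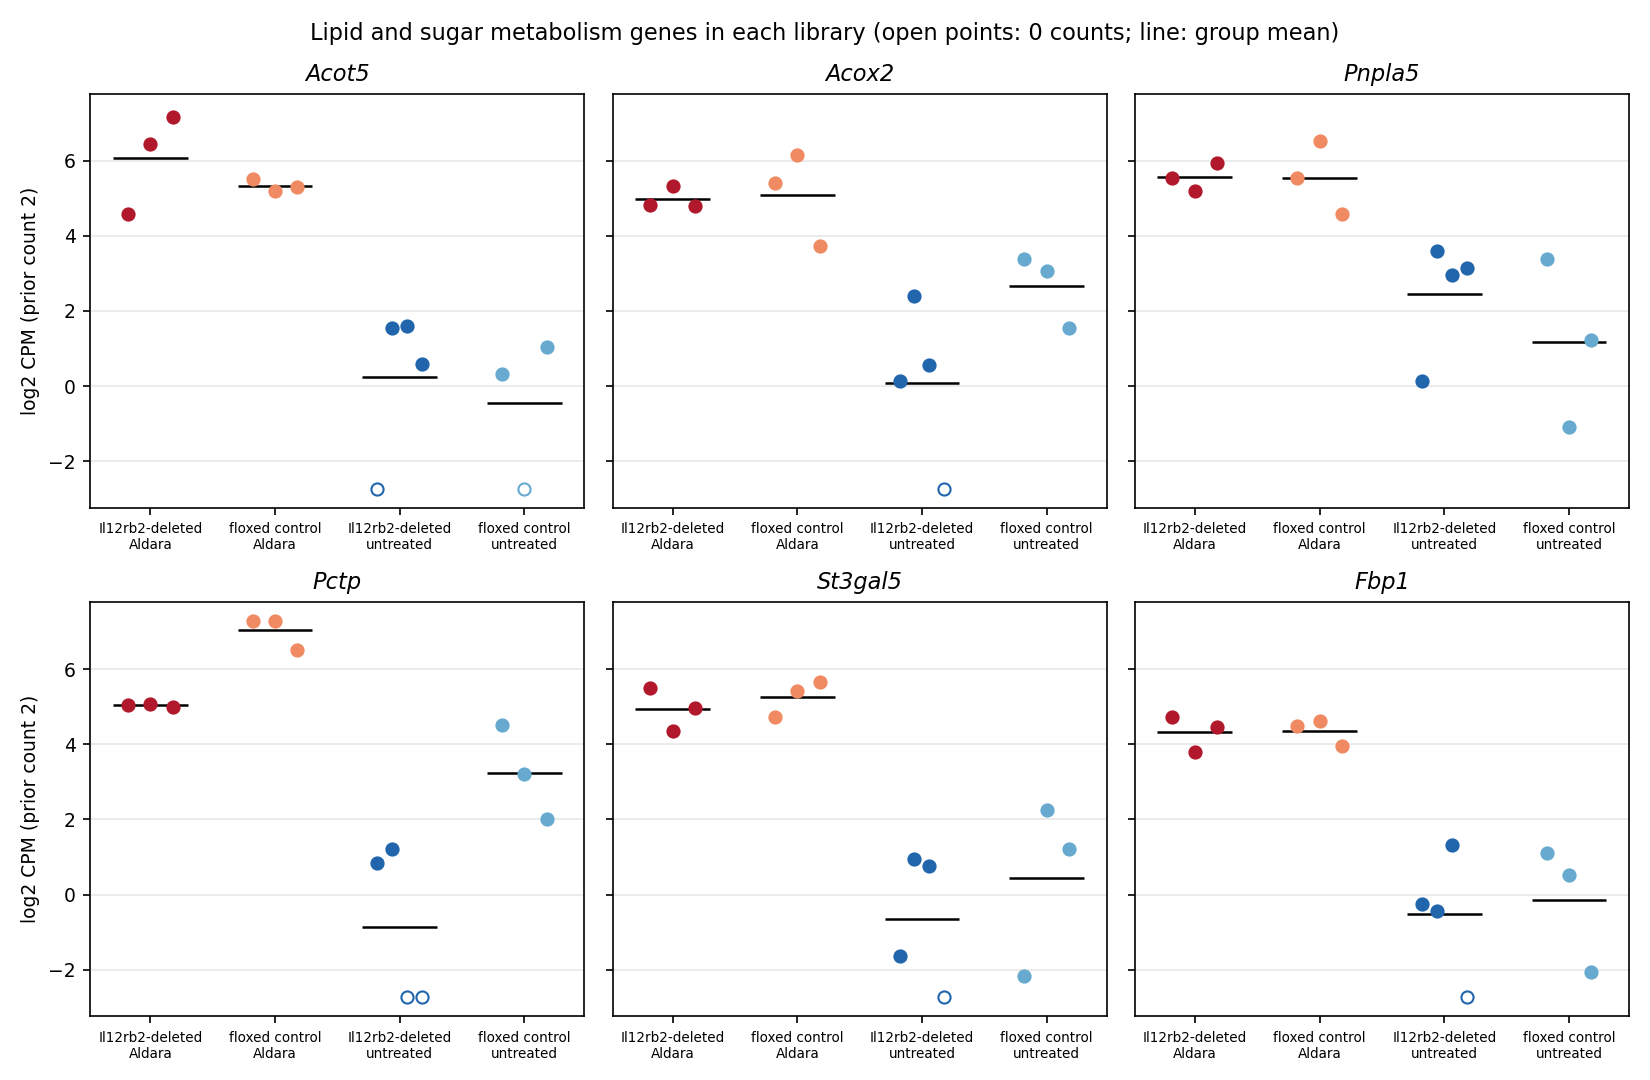
Each panel plots log2 CPM (prior count 2) of 1 gene in the 13 libraries, by group, with the group mean as a line and open points for libraries with 0 counts. In every panel the 6 Aldara libraries lie above the 7 untreated ones, and in the Pctp panel the Il12rb2-deleted libraries lie below the floxed control libraries in both treatments.

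The 2 peroxisomal enzymes had different spreads. Acot5 stood at 24, 86.9 and 144 CPM in Il12rb2-deleted Aldara libraries, 45.3, 36.5 and 39.6 in floxed control Aldara libraries, 0, 2.77, 2.88 and 1.35 in Il12rb2-deleted untreated libraries, and 1.1, 0 and 1.89 in floxed control untreated libraries. The Il12rb2-deleted Aldara libraries lay on both sides of the floxed control Aldara libraries, which were close together (SD 4.49 CPM against 59.9). The log2 difference after Aldara was 5.66 (SE 0.895) in Il12rb2-deleted and 5.2 (SE 0.991) in floxed control cells, which ranked 15 and 11 by size of increase among all genes tested. Acox2 stood at 28.2, 39.9 and 27.7 CPM in Il12rb2-deleted Aldara libraries, 42.5, 71.2 and 13.2 in floxed control Aldara libraries, 0.943, 5.15, 1.32 and 0 in Il12rb2-deleted untreated libraries, and 10.4, 8.21 and 2.75 in floxed control untreated libraries. Here it was the floxed control Aldara libraries that spread widely, and the lowest of them, 13.2 CPM, was close to the highest floxed control untreated library, 10.4 CPM. The log2 difference was 4.28 (SE 0.919) in Il12rb2-deleted and 2.58 (SE 0.921) in floxed control cells, where it ranked 154.

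Pnpla5, the lipid droplet lipase, was the gene of the 6 with the smallest log2 difference in Il12rb2-deleted cells. It stood at 46.7, 36.3 and 61.5 CPM in Il12rb2-deleted Aldara libraries, 46.2, 91.8 and 23.7 in floxed control Aldara libraries, 0.943, 11.9, 7.7 and 8.71 in Il12rb2-deleted untreated libraries, and 10.3, 0.32 and 2.21 in floxed control untreated libraries. Every library held Pnpla5 reads, and 3 untreated libraries, 1 Il12rb2-deleted at 0.943 CPM and 2 floxed control at 0.32 and 2.21 CPM, were below the other untreated libraries, which lay at 7.7 to 11.9 CPM. The log2 difference after Aldara was 2.74 (SE 0.801) in Il12rb2-deleted and 3.64 (SE 0.923) in floxed control cells. In floxed control Aldara cells, Pnpla5, Acox2 and Fbp1 were highest in replicate 2 and lowest in replicate 3. Of the other genes, Pctp was also lowest in replicate 3, at 92.1 CPM. St3gal5 went the other way, being highest in replicate 3 at 50.3 CPM, and Acot5 was highest in replicate 1 at 45.3 CPM. Summed CPM of 15 sebaceous cell markers ran in the order of Pnpla5, Acox2 and Fbp1 there, at 6660 in replicate 2, 6110 in replicate 1 and 3680 in replicate 3. So did the sum of 10 keratinocyte markers, at 21200, 14700 and 13300 CPM in replicates 2, 1 and 3. In Il12rb2-deleted Aldara replicates 1, 2 and 3 the sebaceous sum was 3360, 3870 and 4090 CPM, an order that Acot5 alone of the 6 genes followed. The part of either cell type in these orders was not tested.

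Pctp, the phosphatidylcholine carrier, had no overlap between the genotypes, though neither of its differences passed adjustment over all genes. It stood at 32.9, 33.9 and 31.7 CPM in Il12rb2-deleted Aldara libraries, against 157, 157 and 92.1 in floxed control Aldara libraries. In untreated cells it stood at 1.63, 2.18, 0 and 0 CPM in Il12rb2-deleted libraries, against 22.8, 9.06 and 3.92 in floxed control libraries. The raw counts behind these values were 322, 475 and 464 against 2459, 1349 and 1893 after Aldara, and 19, 11, 0 and 0 against 310, 85 and 87 without it. In both treatments every Il12rb2-deleted library was below every floxed control library. Of all genes tested, 4.72% were lower without overlap after Aldara, 3.26% untreated and 0.218% in both. The edgeR adjusted p of the Pctp difference was 0.982 after Aldara and 0.874 untreated. The 2 libraries at 0 were replicates 3 and 4, which also stood at one end of the second principal component of all genes, at -113.3 and -108.8, against 32.54 and 78.42 in replicates 1 and 2 of that group and 16.14, 107.3 and -52.13 in floxed control untreated replicates 1, 2 and 3. Their part in the untreated difference was not tested. Replicates 1 and 2, at 1.63 and 2.18 CPM, were also below the lowest floxed control untreated library at 3.92 CPM. The log2 difference after Aldara was 5.4 (SE 0.878) in Il12rb2-deleted and 3.51 (SE 0.824) in floxed control cells. A count of 0 in the 2 Il12rb2-deleted untreated libraries allows a level of up to 0.233 and 0.192 CPM (3 counts of the library), which covers counting error only.

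St3gal5, the GM3 synthase, and Fbp1, fructose bisphosphatase, were low in untreated cells of both genotypes, at up to 4.58 CPM for St3gal5 and 2.33 CPM for Fbp1. St3gal5 stood at 45.4, 20.5 and 31.4 CPM in Il12rb2-deleted Aldara libraries, 26.6, 43.1 and 50.3 in floxed control Aldara libraries, 0.171, 1.78, 1.56 and 0 in Il12rb2-deleted untreated libraries, and 0.0737, 4.58 and 2.16 in floxed control untreated libraries. Its log2 difference after Aldara was 5.35 (SE 1.03) in Il12rb2-deleted and 4.16 (SE 1.06) in floxed control cells, and the genotypes overlapped in both treatments. Fbp1 stood at 26.5, 13.8 and 22 CPM in Il12rb2-deleted Aldara libraries, 22.2, 24.8 and 15.5 in floxed control Aldara libraries, 0.686, 0.594, 2.33 and 0 in Il12rb2-deleted untreated libraries, and 1.99, 1.28 and 0.0902 in floxed control untreated libraries. Its means after Aldara were the same to 3 digits in the 2 genotypes, 20.8 ± 6.45 CPM in Il12rb2-deleted and 20.8 ± 4.8 CPM in floxed control cells (SD, n = 3 each). The log2 difference of Fbp1 after Aldara was 4.49 (SE 0.971) in Il12rb2-deleted and 4.24 (SE 1.07) in floxed control cells. Replicate 4 of the Il12rb2-deleted untreated group had 0 counts for Acox2, Pctp, St3gal5 and Fbp1, the most zeros of any library.

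Per length, the order of the genes changed with genotype and treatment. Levels in CPM per kilobase of exon were, in Il12rb2-deleted Aldara cells, 55.9 ± 39.4 for Acot5, 22.2 ± 5.82 for Pnpla5, 12.4 ± 4.77 for St3gal5, 12.2 ± 3.79 for Fbp1, 12.1 ± 0.4 for Pctp and 8.63 ± 1.86 for Acox2 (SD, n = 3). In that order each gene overlapped the next in range except Pctp, whose lowest library at 11.7 was above the highest for Acox2 at 10.8. In floxed control Aldara cells the levels were 49.7 ± 13.7 for Pctp, 26.6 ± 2.96 for Acot5, 24.8 ± 16 for Pnpla5, 15.3 ± 4.63 for St3gal5, 12.2 ± 2.82 for Fbp1 and 11.4 ± 7.84 for Acox2 (SD, n = 3), and every neighbour overlapped except that Pctp lay above Acot5. In untreated cells the ranges of neighbours overlapped throughout. The highest gene there was Pnpla5 in Il12rb2-deleted cells, at 3.36 ± 2.12 (SD, n = 4), and Pctp in floxed control cells, at 4.38 ± 3.59 (SD, n = 3). By mean level Pctp had rank 5 of the 6 in Il12rb2-deleted and rank 1 in floxed control cells, both after Aldara and untreated.

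The genotype comparison asked whether deletion of Il12rb2 in keratinocytes went with another level of these genes, or with another Aldara effect on them. No gene passed the test in either treatment, so the share of genes called was 0% of 16051, with 690 genes after Aldara and 599 untreated at an unadjusted p under 0.05. DESeq2 called 4 higher and 20 lower after Aldara, and 20 higher and 2 lower untreated. In bulk samples, fewer cells of a type and less RNA per cell cannot be told apart.

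Pctp had the largest genotype difference of the 6 genes in each treatment. After Aldara it averaged 32.9 ± 1.09 CPM in Il12rb2-deleted and 135 ± 37.4 CPM in floxed control cells (SD, n = 3 each), a log2 difference of -2.04 (SE 0.773, 95% interval -3.69 to -0.394). In untreated cells it averaged 0.952 ± 1.12 CPM in Il12rb2-deleted (SD, n = 4) and 11.9 ± 9.78 CPM in floxed control cells (SD, n = 3), a log2 difference of -3.93 (SE 0.862, 95% interval -5.77 to -2.1). Neither passed adjustment over all genes in edgeR's quasi-likelihood test, with an adjusted p of 0.982 after Aldara (unadjusted p = 0.0185, and 0.847 to 1 adjusted over the alternatives) and of 0.874 untreated (unadjusted p = 0.000367, and 0.0267 to 1 adjusted over the alternatives). The lowest of these, 0.0267, came from testing all genes with no filter on low counts. CPM values of the genotypes did not overlap for 9.09% of all genes after Aldara, 4.37% higher and 4.72% lower, and for 6.03% untreated, 2.77% higher and 3.26% lower. Of all genes, 35 of 16051, 0.218%, were lower without overlap in both treatments, with Pctp among them. Over both treatments, a contrast added after the Pctp values were seen, the log2 difference was -2.99 (SE 0.585, 95% interval -4.23 to -1.74, edgeR unadjusted p = 0.000125, adjusted p = 0.671). That adjusted p was 0.00944 with no filter on low counts, 0.0357 without the 3 libraries high in Gm10800, which leaves Il12rb2-deleted untreated cells with the 2 libraries at 0 counts, and up to 1 over the other alternatives.

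Genes near Pctp had differences of both signs. Of 11 tested genes within 1 Mb of Pctp on chromosome 11, 4 were lower in Il12rb2-deleted cells in both treatments and none passed edgeR's test, with log2 differences of -1.252 to 1.228 after Aldara and -1.54 to 0.2451 untreated. Il12rb2 lies on chromosome 6, from 67291318 to 67376188. Both genotypes carry its floxed alleles, and the position of the Cre transgene was not examined. The part of gene position in the Pctp difference was not tested.

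The other 5 genes overlapped between genotypes in both treatments. After Aldara their log2 differences were 1.07 for Acot5 (95% interval -0.655 to 2.79), -0.403 for Acox2 (-2.24 to 1.44), -0.158 for Pnpla5 (-1.91 to 1.59), -0.304 for St3gal5 (-2.25 to 1.64) and -0.00334 for Fbp1 (-1.96 to 1.95). The intervals are wide: for Fbp1, whose means were nearly equal, a difference of over 3-fold in either direction lies inside the interval. Leaving out 1 library moved Acot5 to between 0.454 (without Il12rb2-deleted Aldara replicate 3) and 1.51 (without its replicate 1), and St3gal5 to between -0.625 (without its replicate 1) and -0.0624 (without its replicate 2). In untreated cells the log2 differences were 0.619 for Acot5 (-1.3 to 2.54), -2.11 for Acox2 (-4 to -0.224), 0.74 for Pnpla5 (-1 to 2.48), -1.49 for St3gal5 (-3.6 to 0.621) and -0.252 for Fbp1 (-2.29 to 1.79). The edgeR adjusted p of these 10 differences lay between 0.982 and 1, and only Acox2 untreated had an unadjusted p under 0.05 (0.0307). Leaving out 1 untreated library gave Acot5 0.138 (floxed control replicate 2) to 1.45 (floxed control replicate 3), Pnpla5 0.217 (floxed control replicate 2) to 2.38 (floxed control replicate 1), St3gal5 -2.26 (Il12rb2-deleted replicate 3) to -0.567 (floxed control replicate 2) and Acox2 -3.25 (Il12rb2-deleted replicate 2) to -1.63 (Il12rb2-deleted replicate 4).

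Whether the Aldara effect itself differed between genotypes was tested by the interaction, the Aldara effect in Il12rb2-deleted minus that in floxed control cells. It was called for no gene by edgeR (0%), with 539 genes at an unadjusted p under 0.05, and DESeq2 called 0 higher and 2 lower. The log2 interaction was 1.89 for Pctp (95% interval -0.532 to 4.31), 1.71 for Acox2 (-0.924 to 4.34), 1.19 for St3gal5 (-1.68 to 4.05), 0.45 for Acot5 (-2.13 to 3.03), 0.248 for Fbp1 (-2.57 to 3.06) and -0.899 for Pnpla5 (-3.36 to 1.56), all at an edgeR adjusted p of 1. A positive sign means a larger Aldara effect in Il12rb2-deleted cells. For Pctp and Acox2 the interval includes both no difference and a difference of over 4 on the log2 scale.

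**Figure D2:**
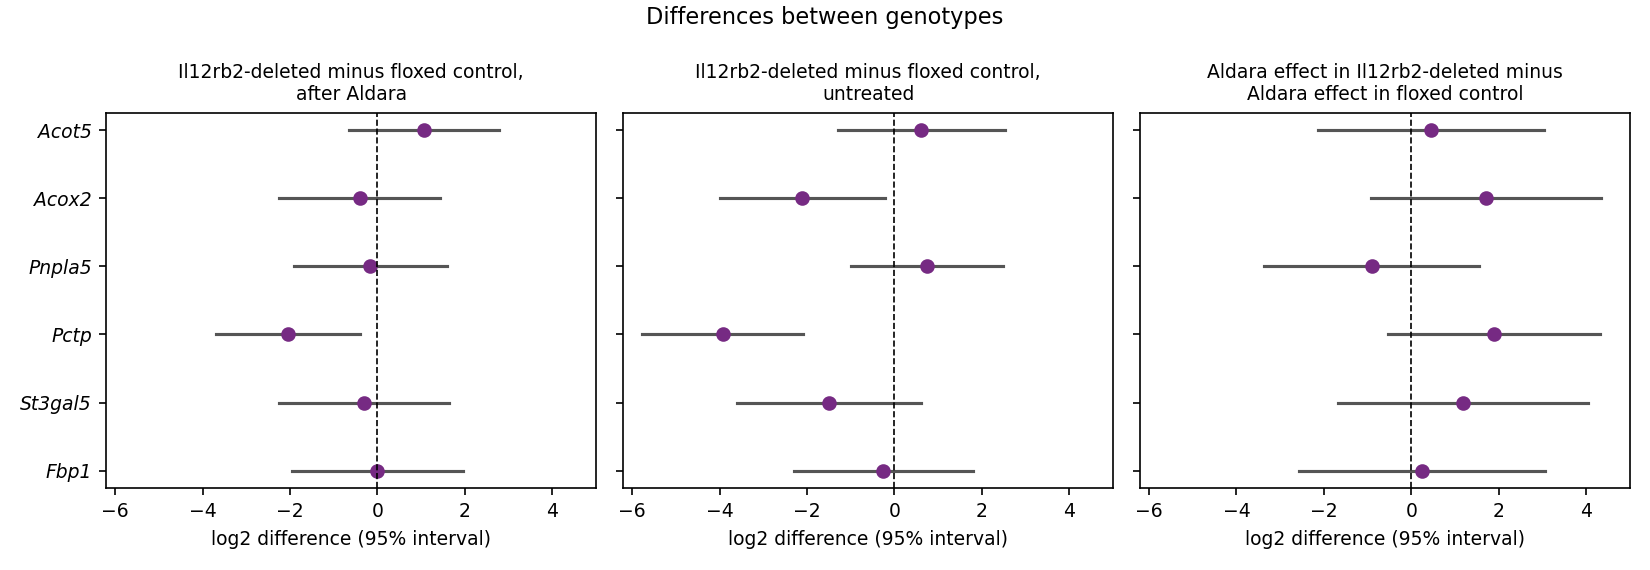
Points are log2 differences and bars their 95% intervals for each gene, for Il12rb2-deleted minus floxed control cells after Aldara (left) and untreated (middle), and for the difference between the Aldara effects (right). The interval of Pctp lies below 0 in the left and middle panels, that of Acox2 in the middle panel, and every other interval includes 0.

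The 6 genes varied in how alike their profiles were over the 13 libraries. Likeness was measured as the root mean square difference between log2 CPM profiles after centring each on its own mean, over 14390 tested genes with predicted genes left out. The closest pair was Acox2 and Fbp1 at 1.29, then Acox2 and Pctp at 1.41 and Acot5 and Pnpla5 at 1.43, and the farthest was Acot5 and Pctp at 2.86. A library with 0 counts enters at -2.739 log2 CPM, so the place of the zeros affects these distances. Acot5 had 0 counts in Il12rb2-deleted untreated replicate 1 and floxed control untreated replicate 2, and Pctp in Il12rb2-deleted untreated replicates 3 and 4. The part of these zeros in the distances was not tested. For Acot5 the gene most like it was Pnpla5, followed by Elovl3, an elongase of very long chain fatty acids, at 1.44. For Fbp1 it was Cidec, a lipid droplet protein, at 0.875, and for Pctp it was Ces4a, a carboxylesterase, at 1.12. Acox2 was nearest to Smpdl3b at 0.776, a relative of acid sphingomyelinase, Pnpla5 to Tmigd1 at 0.719, and St3gal5 to ETV3L at 1.32. The next in order were ETV3L at 1.53 for Acot5, Myorg at 0.876 and Mettl7b at 0.899 for Acox2, and Ccne1 at 0.83 and Nrg2 at 0.944 for Pnpla5. For Pctp they were Mtfp1 at 1.34 and Acox2, for St3gal5 they were Fbp1 at 1.53 and Lgi2 at 1.56, and for Fbp1 they were Adig at 1.05 and ETV3L at 1.1.

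**Figure D3:**
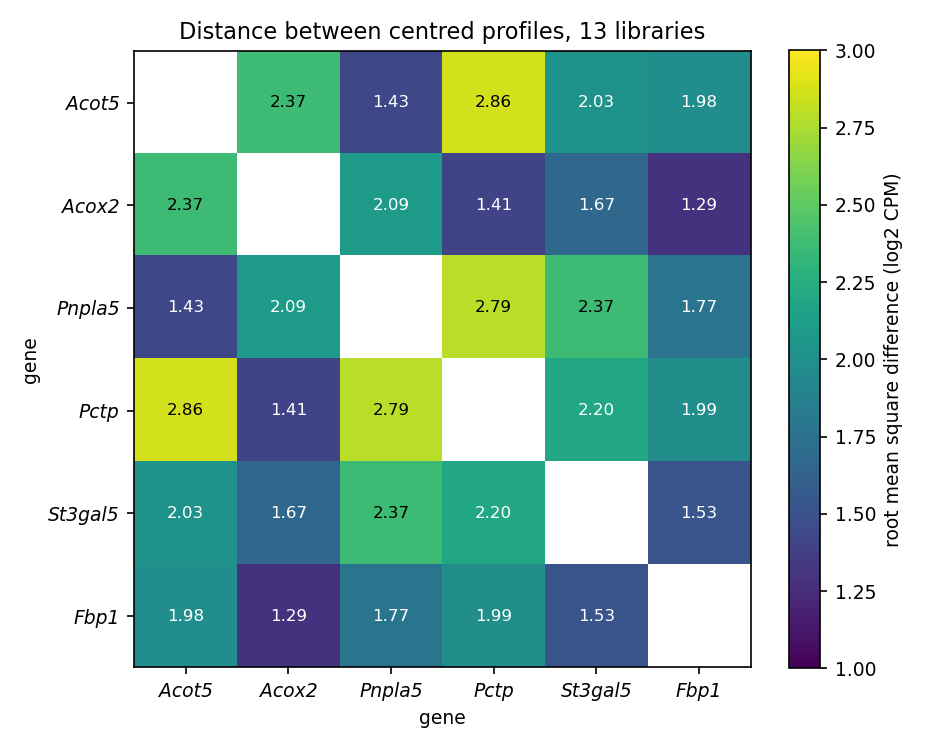
The colour and number in each square give the root mean square difference between the centred log2 CPM profiles of 2 genes over 13 libraries, with dark squares the most alike. Pctp is far from Acot5 (2.86) and Pnpla5 (2.79), and Acox2 is near Fbp1 (1.29) and Pctp (1.41). Libraries with 0 counts enter at -2.739 log2 CPM.

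Ces4a was the tested gene nearest to Pctp, and it did not pass the test between genotypes. It was chosen by likeness over the same 13 libraries, so its sign between genotypes is not a separate observation. Its log2 difference between Il12rb2-deleted and floxed control cells was -1.45 (SE 0.999) after Aldara and -1.75 (SE 1.05) untreated, at edgeR adjusted p of 0.982 and 1. For Elovl3 it was -0.29 (SE 0.631) after Aldara and -0.571 (SE 0.592) untreated, with adjusted p of 0.987 and 1.

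Other genes of the same pathways were read from lists that did not include the 6 genes. Over all genes, edgeR called 7.81% higher and 7.69% lower in Il12rb2-deleted cells, and 4.15% higher and 2.9% lower in floxed control cells. The counts for each list, here and in the paragraphs below, are to be read beside these shares. In peroxisomal oxidation, 10 of 26 genes tested rose and 0 fell after Aldara in Il12rb2-deleted cells, and 7 rose and 0 fell in floxed control cells, with median log2 changes of 0.667 in Il12rb2-deleted and 0.652 in floxed control cells. Scp2, the peroxisomal thiolase and sterol carrier, changed by 1.33 (SE 0.252, edgeR adjusted p = 0.00286) in Il12rb2-deleted and 1.36 (SE 0.275, adjusted p = 0.0108) in floxed control cells. Crat, which moves acetyl groups onto carnitine, changed by 1.82 in Il12rb2-deleted and 2.06 in floxed control cells. Eci2, an enoyl-CoA isomerase, changed by 1.71 in Il12rb2-deleted and 1.42 in floxed control cells, and Hsd17b4, the multifunctional enzyme that acts after Acox2, by 1.07 in Il12rb2-deleted and 1.32 in floxed control cells. The Acox2 relatives Acox3 and Acoxl did not pass the test, with Acox3 at -1.11 and Acoxl at 1.07 in Il12rb2-deleted cells, and Acox3 at -0.338 and Acoxl at 2.09 in floxed control cells. Scp2, Crat, Eci2 and Pex11a were called in Il12rb2-deleted cells under all 18 alternatives, while no call of the list in floxed control cells was. In Il12rb2-deleted cells 6 were called with the 3 libraries high in Gm10800 left out, and 6 without Aldara replicate 2 or 3 of that genotype. The floxed control count was 1 without floxed control untreated replicate 2 or 3, 2 without the 3 libraries high in Gm10800, 3 without floxed control Aldara replicate 1 or 2, and 4 without Il12rb2-deleted Aldara replicate 2. In Il12rb2-deleted cells 1 gene was called lower without untreated replicate 2 of that genotype.

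In mitochondrial fatty acid oxidation, 8 of 18 genes rose and 0 fell in each genotype, with median log2 changes of 0.639 in Il12rb2-deleted and 0.88 in floxed control cells. Acadl, the long-chain acyl-CoA dehydrogenase, changed by 1.77 (SE 0.301, edgeR adjusted p = 0.00163) in Il12rb2-deleted and 1.66 (SE 0.33, adjusted p = 0.0103) in floxed control cells. Acaa2, a thiolase, changed by 1.29, Hadha of the trifunctional protein by 1.08 and the reductase Decr1 by 2.19 in Il12rb2-deleted cells, and the changes of Acaa2, Hadha and Decr1 in floxed control cells were 1.08, 0.923 and 1.17. Acadl, Acaa2, Hadha, Decr1 and Etfb kept their call in Il12rb2-deleted cells under all 18 alternatives, and no floxed control call did. In Il12rb2-deleted cells 5 were called with the 3 libraries high in Gm10800 left out. The floxed control count was 0 without floxed control untreated replicate 2, 1 without untreated replicate 3 or Aldara replicate 2 of that genotype or without the 3 libraries high in Gm10800, 2 without its Aldara replicate 1, and 4 without its untreated replicate 1. It was 5 without Il12rb2-deleted Aldara replicate 2 or 3 or untreated replicate 3.

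Among 11 acyl-CoA thioesterases tested, 2 rose and 1 fell in Il12rb2-deleted cells and none passed in floxed control cells, with medians of 0.503 in Il12rb2-deleted and 0.539 in floxed control cells. Acot1, a cytosolic thioesterase from the run of genes that holds Acot5, changed by 2.11 (SE 0.507, edgeR adjusted p = 0.0114) in Il12rb2-deleted cells and stood at 1.68 (SE 0.551, adjusted p = 0.0802) in floxed control cells. Acot7 changed by 3.26 (SE 0.663, edgeR adjusted p = 0.00428) in Il12rb2-deleted cells and stood at 2.17 (adjusted p = 0.0769) in floxed control cells, and Acot9 of mitochondria fell by 1.4 in Il12rb2-deleted cells (adjusted p = 0.0128). Of the other genes in the Acot5 run, Acot4 stood at 2.97, Acot6 at 1.41 and Acot2 at 0.779 in Il12rb2-deleted cells, and Acot4 at 3.58, Acot6 at 1.56 and Acot2 at 0.602 in floxed control cells, without passing, and Acot3 had too few counts to test. Acot8, Acot11 and Acot13 lay between 0.301 and 0.539 over both genotypes, and Them5 stood at -2.31 in Il12rb2-deleted and -2.32 in floxed control cells, all without passing. Acot7 alone kept its call under all 18 alternatives. Acot9 lost its call without Il12rb2-deleted Aldara replicate 1, 2 genes were called lower with no filter, by DESeq2, or without Aldara replicate 3 or untreated replicate 2 of that genotype, and Acot1 lost it in 1 alternative, with Il12rb2-deleted Aldara replicate 2 left out. In floxed control cells 1 thioesterase was called lower without Il12rb2-deleted Aldara replicate 1, 1 was called higher without the 3 libraries high in Gm10800, floxed control untreated replicate 1 or Il12rb2-deleted Aldara replicate 1, and 2 were called without Il12rb2-deleted untreated replicate 2, with no filter on low counts or by DESeq2.

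Lipid droplet genes rose in part. Of 22 tested with the PNPLA lipases, 4 rose and 0 fell in Il12rb2-deleted cells and 2 rose and 0 fell in floxed control cells, with medians of 0.497 in Il12rb2-deleted and 0.35 in floxed control cells. Mgll, the monoacylglycerol lipase, averaged 1090 CPM after Aldara against 199 CPM untreated in Il12rb2-deleted cells, which is 2.45 on the log2 scale (SE 0.425, edgeR adjusted p = 0.00179). In floxed control cells it averaged 1100 CPM after Aldara against 173 CPM untreated, which is 2.67 on the log2 scale (SE 0.475, edgeR adjusted p = 0.00665). Plin2, which coats lipid droplets, changed by 2.82 in Il12rb2-deleted and 2.68 in floxed control cells. Cidea and Cidec changed by 2.26 and 4.72 in Il12rb2-deleted cells and stood at 1.98 and 3.21 without passing in floxed control cells. The relatives of Pnpla5 did not pass, with Pnpla1 at -1.21, Pnpla2, the main triglyceride lipase, at 0.459 and Pnpla3 at -3.92 in Il12rb2-deleted cells, Pnpla1 at -0.322, Pnpla2 at 0.341 and Pnpla3 at -3.2 in floxed control cells, and Pnpla6, Pnpla7 and Pnpla8 between -0.177 and 0.684 over both genotypes. Mgll was called in both genotypes and Plin2 in Il12rb2-deleted cells under all 18 alternatives. The Il12rb2-deleted count was 2 without Aldara replicate 2 or untreated replicate 4 of that genotype, and the floxed control count was 1 without its untreated replicate 2 or 3 and 4 without its untreated replicate 1. Genes called lower in Il12rb2-deleted cells numbered 1 without floxed control Aldara replicate 1, 2 without its replicate 3 and 2 by DESeq2, which also called 1 lower in floxed control cells.

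Among START proteins and phosphatidylcholine enzymes, 3 of 24 rose and 3 fell in Il12rb2-deleted cells, and 1 rose and 3 fell in floxed control cells, with medians of -0.165 in Il12rb2-deleted and -0.0702 in floxed control cells. Stard7, a mitochondrial phosphatidylcholine carrier and relative of Pctp, changed by 1.72 (SE 0.258, edgeR adjusted p = 0.000888) in Il12rb2-deleted cells and stood at 0.928 (SE 0.277, adjusted p = 0.0565) in floxed control cells. Stard5, a sterol and bile acid binding relative, changed by 1.39 (edgeR adjusted p = 0.0151) in Il12rb2-deleted cells and stood at 0.832 (adjusted p = 0.218) in floxed control cells. Lpcat3, which puts polyunsaturated chains into phosphatidylcholine, changed by 1.34 in Il12rb2-deleted and 0.93 in floxed control cells. Its relative Lpcat2 changed by -2.14 in Il12rb2-deleted and -1.45 in floxed control cells, and the choline kinase Chkb by -1.06 in Il12rb2-deleted and -1.13 in floxed control cells. Star, Stard3, Stard4, Stard6, Stard8, Stard9, Stard10 and Stard13 did not pass, with values from -2.52 to 1.24 over both genotypes. The genotype differences of Stard7 were 0.337 after Aldara and -0.457 untreated, and none of the 24 passed between genotypes. Stard7, Lpcat2, Lpcat3 and Chkb kept their calls in Il12rb2-deleted cells under all 18 alternatives. In floxed control cells the count of risen genes was 0 without Aldara replicate 1 or 2 or untreated replicate 2 or 3 of that genotype and 2 without its Aldara replicate 3 or by DESeq2, and that of fallen genes was 1 with no filter or without its Aldara replicate 1 or untreated replicate 2 or 3. Without the 3 libraries high in Gm10800 both were 0.

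In the ganglioside pathway of St3gal5 edgeR called no gene higher. Of 23 ganglioside genes tested, 0 rose and 3 fell in Il12rb2-deleted cells and none passed in floxed control cells, with medians of -1.02 in Il12rb2-deleted and -0.569 in floxed control cells. Among those that fell were the sialidase Neu3, which had 0 counts in all Il12rb2-deleted Aldara libraries against a mean of 4.89 CPM in untreated ones, and Gm2a, the GM2 activator, which fell by 1.79 (SE 0.533, edgeR adjusted p = 0.0332). The other ST3GAL sialyltransferases did not pass, with St3gal1 at 1.24, St3gal2 at 0.811, St3gal3 at 1.42, St3gal4 at 1.32 and St3gal6 at -1.28 in Il12rb2-deleted cells. In floxed control cells St3gal1 stood at 0.561, St3gal2 at 0.312, St3gal3 at 2.15, St3gal4 at 0.198 and St3gal6 at -1.83. Glb1, a lysosomal galactosidase, stood at -1.23 in Il12rb2-deleted and -1.11 in floxed control cells without passing. Neu3 kept its call under all 18 alternatives, and the count of fallen genes was 1 without Il12rb2-deleted Aldara replicate 1 or 3, without untreated replicate 1, 3 or 4 of that genotype, or without the 3 libraries high in Gm10800. DESeq2 called 1 gene higher and 5 lower in Il12rb2-deleted cells and 1 lower in floxed control cells.

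Of 15 genes of fructose bisphosphate turnover and gluconeogenesis, 2 rose and 3 fell in Il12rb2-deleted cells and 1 rose and 0 fell in floxed control cells, with medians of -0.365 in Il12rb2-deleted and 0.0209 in floxed control cells. Pcx, pyruvate carboxylase, changed by 1.72 (SE 0.432, edgeR adjusted p = 0.0147) in Il12rb2-deleted and 1.74 (SE 0.474, adjusted p = 0.0399) in floxed control cells. Pfkfb3, which makes the regulatory fructose bisphosphate that inhibits Fbp1, fell by 3.04 in Il12rb2-deleted cells (SE 0.605, edgeR adjusted p = 0.00386) and stood at -0.968 (adjusted p = 0.372) in floxed control cells. Pfkfb2 fell by 1.39 in Il12rb2-deleted cells and stood at -0.776 in floxed control cells, and the aldolase Aldoa stood at 0.538 in Il12rb2-deleted and 0.784 in floxed control cells without passing. Fbp2, the muscle relative of Fbp1, stood at -0.296 in Il12rb2-deleted and 1.92 in floxed control cells. Pck1 and G6pc, the enzymes on either side in liver gluconeogenesis, had too few counts to test. Pfkfb3 alone was called under all 18 alternatives. Without the 3 libraries high in Gm10800 the Il12rb2-deleted counts were 0 risen and 1 fallen. The fallen count was also 1 with no filter or without Il12rb2-deleted Aldara replicate 2 or 3, its untreated replicate 1, 3 or 4, or floxed control untreated replicate 1 or 2, the risen count was 1 without Il12rb2-deleted Aldara replicate 3, and Pcx in floxed control cells was lost in 9 of the 18, while DESeq2 called 2 higher there.

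PPAR factors and their known targets, which turn on fatty acid oxidation and storage genes, rose in part as well. Of 19 tested, 7 rose and 1 fell in Il12rb2-deleted cells, and 4 rose and 1 fell in floxed control cells, with medians of 1.2 in Il12rb2-deleted and 0.977 in floxed control cells. Fabp5, the epidermal fatty acid binding protein, changed by 2.84 (SE 0.488, edgeR adjusted p = 0.00174) in Il12rb2-deleted and 2.26 (SE 0.531, adjusted p = 0.02) in floxed control cells. Angptl4, an inhibitor of lipoprotein lipase, changed by 2.4 and the mitochondrial carrier Ucp2 by 1.42 in Il12rb2-deleted cells, and the changes of Angptl4 and Ucp2 in floxed control cells were 1.78 and 1.08. Pparg changed by 2.29 (edgeR adjusted p = 0.0144) in Il12rb2-deleted cells and stood at 1.86 (adjusted p = 0.0851) in floxed control cells, while Ppara stood at 0.626 and Ppard at 0.169 in Il12rb2-deleted cells, and Ppara at 0.777 and Ppard at 0.189 in floxed control cells. Acsl1, an acyl-CoA synthetase, changed by -1.44 in Il12rb2-deleted and -1.86 in floxed control cells and was the 1 that fell in each genotype. In Il12rb2-deleted cells 7 of the 8 calls held under all 18 alternatives, Vnn3 being the exception, and in floxed control cells only Acsl1 did. The floxed control count of risen genes was 0 without its Aldara replicate 2, its untreated replicate 2 or 3 or the 3 libraries high in Gm10800, 1 without its Aldara replicate 1, and 2 without its Aldara replicate 3 or without Il12rb2-deleted Aldara replicate 3 or untreated replicate 3. DESeq2 called 3 lower in floxed control cells.

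**Figure D4:**
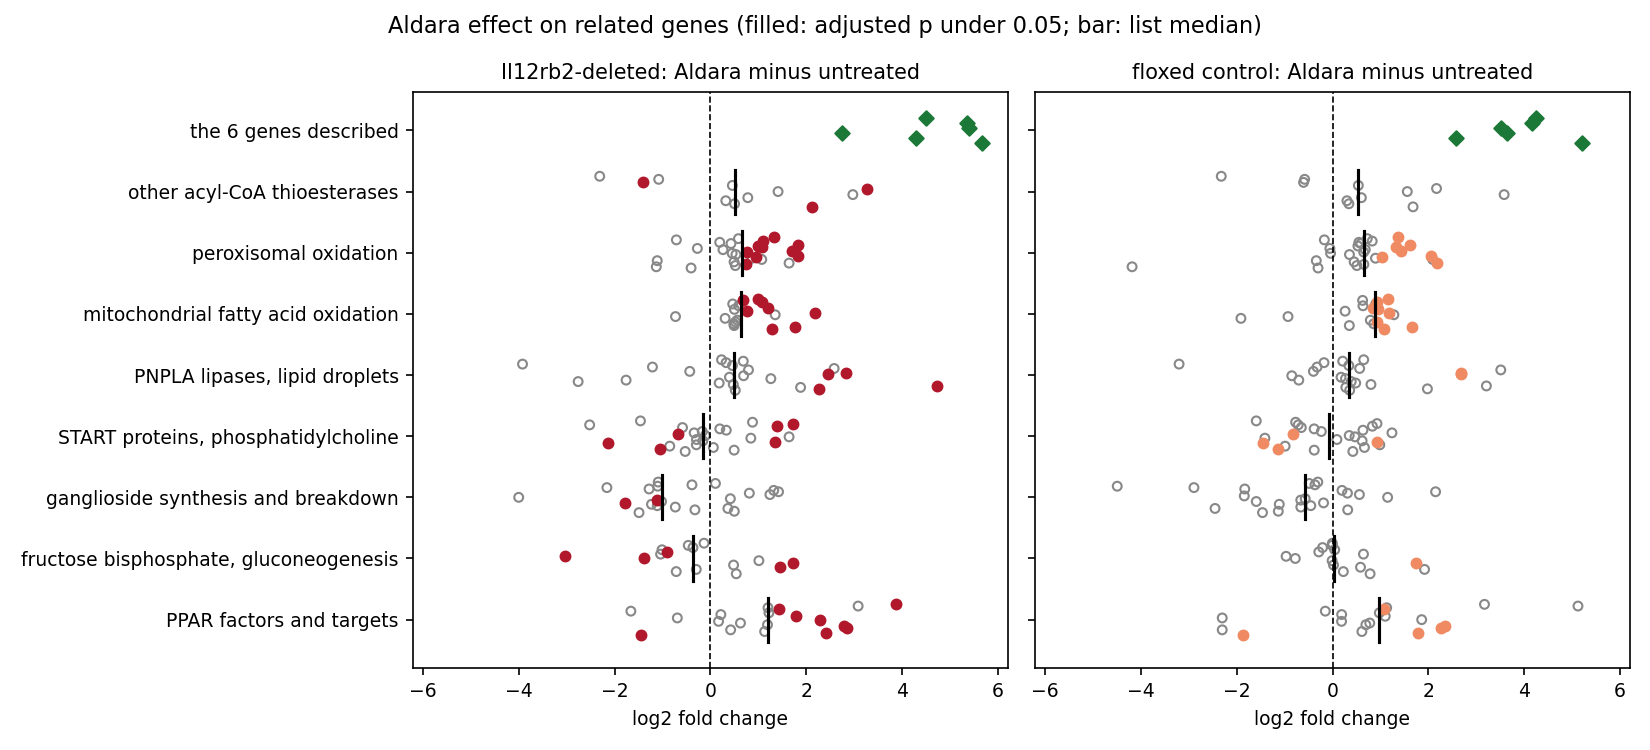
Each point is the log2 fold change after Aldara of 1 tested gene, in Il12rb2-deleted cells (left) and floxed control cells (right), by pathway list, filled where the edgeR adjusted p was under 0.05, with a bar at the list median. The 6 genes described, as diamonds, lie from 2.74 to 5.66 on the left and from 2.58 to 5.2 on the right, and Neu3, with 0 counts in Il12rb2-deleted Aldara libraries, is not drawn on the left.

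Sebaceous cell markers were higher in the same libraries as the 6 genes. Of 15 markers, 8 rose and 0 fell in Il12rb2-deleted cells and 5 rose and 0 fell in floxed control cells, with medians of 2.15 in Il12rb2-deleted and 1.98 in floxed control cells, and their summed level was 3360 to 4090 CPM in Il12rb2-deleted Aldara, 3680 to 6660 CPM in floxed control Aldara, 401 to 1980 CPM in Il12rb2-deleted untreated and 1010 to 2150 CPM in floxed control untreated libraries. Elovl3 and Far2 were among them, at 3.63 and 2.8 in Il12rb2-deleted and 3.35 and 3.07 in floxed control cells, and none of the 15 was at 0 in all Aldara libraries. The list shares Cidea and Plin5 with the lipid droplet list and Pparg with the PPAR list. Over the same libraries the sum of 10 keratinocyte markers was 13000 to 22100 CPM in Il12rb2-deleted Aldara and 13300 to 21200 CPM in floxed control Aldara libraries, against 44700 to 71900 CPM in Il12rb2-deleted untreated and 27700 to 49500 CPM in floxed control untreated libraries. Of these 10, 8 fell and 0 rose in Il12rb2-deleted cells and 5 fell and 0 rose in floxed control cells. Adipocyte markers were low, at 15.3 to 23.7 CPM in sum in Il12rb2-deleted Aldara, 14.2 to 24.1 in floxed control Aldara, 8.84 to 23.3 in Il12rb2-deleted untreated and 21.2 to 26 in floxed control untreated libraries, with 7 of the 10 under 1 CPM on average after Aldara and Adipoq, which encodes adiponectin, at 0 in all Aldara libraries. Of 4 adipocyte markers tested, Cidec rose in Il12rb2-deleted cells, by 4.72 on the log2 scale, and none fell. That call was lost in 8 of 18 alternatives. None of the 4 passed in floxed control cells, and their medians were -1.79 in Il12rb2-deleted and -1.03 in floxed control cells. The adipocyte list shares Plin1, Cidec and Lipe with the lipid droplet list and Pck1 with the gluconeogenesis list. The sum of 10 fibroblast markers was 67.7 to 183 CPM in Il12rb2-deleted Aldara, 105 to 361 CPM in floxed control Aldara, 871 to 2070 CPM in Il12rb2-deleted untreated and 892 to 1070 CPM in floxed control untreated libraries. The part of a changed mix of cells in the values of the 6 genes was not tested. The sebaceous count was 4 without Il12rb2-deleted untreated replicate 4 and 5 without its Aldara replicate 2 or 3 in Il12rb2-deleted cells. In floxed control cells it was 1 without its untreated replicate 2 or 3, 2 without its Aldara replicate 1 or 2, and 3 without Il12rb2-deleted Aldara replicate 3, but 9 with no filter on low counts and 9 by DESeq2. In Il12rb2-deleted cells 1 marker was called lower by DESeq2 or without untreated replicate 2 of that genotype.

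Between genotypes the sebaceous sums overlapped in both treatments, while Pctp did not. After Aldara the sum was 3360, 3870 and 4090 CPM in Il12rb2-deleted libraries, against 6110, 6660 and 3680 CPM in floxed control libraries, which overlap. Untreated it was 401, 1980, 1360 and 742 CPM in Il12rb2-deleted libraries, against 2150, 1270 and 1010 CPM in floxed control libraries. No marker of the list passed the edgeR test between genotypes, and their median log2 difference was -0.294 after Aldara and -0.367 untreated. The summed melanocyte and neutrophil markers did not overlap between genotypes after Aldara, as was so for 9.09% of all single genes tested. The sum of 8 melanocyte markers was 15.5 to 86.7 CPM in Il12rb2-deleted Aldara and 98.2 to 167 CPM in floxed control Aldara libraries, and 37.2 to 100 CPM in Il12rb2-deleted untreated and 68.9 to 254 CPM in floxed control untreated libraries, which overlap. The sum of 10 neutrophil markers, 8 of them under 1 CPM on average and 1 at 0 in all Aldara libraries, was 25.4 to 43.2 CPM in Il12rb2-deleted Aldara and 4.92 to 11.5 CPM in floxed control Aldara libraries, and 0 to 8.58 CPM in Il12rb2-deleted untreated and 1.33 to 6.29 CPM in floxed control untreated libraries. No marker of these lists passed the edgeR test between genotypes, for which only 2 of the 10 neutrophil markers had enough counts. Sums of macrophage and Langerhans cell, T cell, endothelial and hair follicle markers overlapped between genotypes in both treatments. The part of these cell types in the Pctp difference was not tested.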

How the data were processed

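RNA of sorted mouse keratinocytes was made into libraries by Smart-seq2, which keeps no strand and uses no molecular identifiers, and sequenced as single reads of 100 bases, per the labels' protocols. The authors deposited 1 table of raw counts per gene for 13 libraries. STAR, Subread, featureCounts and the build GRCm38 are named in the submitters' processing notes, with versions not given in the sources used here. All sample columns were used. Counts were tested with edgeR 4.0.16 in R 4.3.3 by the quasi-likelihood F test, with 1 coefficient for each of 4 groups, TMM factors, filterByExpr at a minimum count of 10 and Benjamini-Hochberg adjustment over 16051 genes; a call is an adjusted p under 0.05. The common dispersion was 0.424. DESeq2 1.42.0, RLE factors, no filter, a replicate block, libraries left out and a fit without libraries high in Gm10800 were alternatives, 18 in all.

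The 6 genes and all lists were chosen with earlier results of these data known. From each list the text names up to 4 genes with the smallest summed ranks of their p-values in both Aldara contrasts and the close relatives of the 6 genes. Other list genes were named after their values were seen, and some list genes are not reported here by name. For likeness, the 3 nearest genes were taken. Gene positions are from GENCODE M21 and promoters from RefSeq GRCm38.p6, found for 6 of 6 genes. Total counts of 5830034 to 22232478 per library set the precision, and limits from 0 counts cover counting error only. No pair of libraries held identical values.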

Additional observations from a re-analysis of the deposited data

How the results depend on the processing

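The planned fit without libraries over 1% in Gm10800 was not run, since it would remove every Il12rb2-deleted Aldara library; 5% was chosen after seeing the data. That fit called 699 genes higher and 767 lower after Aldara in Il12rb2-deleted cells and 166 and 104 in floxed control cells, with the cause not tested. DESeq2 called 1884 lower in Il12rb2-deleted cells, and 1059 higher and 982 lower in floxed control cells. With 1 library left out, 806 to 1390 were higher and 824 to 1374 lower in Il12rb2-deleted cells, and 104 to 748 higher and 111 to 703 lower in floxed control cells, lowest without floxed control untreated replicate 2.

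Between genotypes DESeq2 called 4 higher and 20 lower after Aldara, 20 higher and 2 lower untreated, 2 lower in the interaction, and 9 higher and 9 lower over both treatments. With no filter, 1 was lower after Aldara, 2 were higher and 1 lower untreated, and 3 were higher and 1 lower over both; 1 was lower over both without the libraries high in Gm10800, and 0 to 1 lower in the interaction with 1 library left out. The Fbp1 difference after Aldara turned to 0.00584 with RLE factors, 0.00803 with no filter, 0.00576 with DESeq2 and 0.00586 without the libraries high in Gm10800. Without those libraries Fbp1 was 0.252 untreated, -0.246 in the interaction and 0.129 over both. With the replicate block Fbp1 was 0.326, -0.357 and 0.147, and 978 genes were higher and 941 lower after Aldara in Il12rb2-deleted and 487 and 344 in floxed control cells. The block called 4 sebaceous markers and 2 lipid droplet genes higher and 1 fructose bisphosphate gene lower in Il12rb2-deleted cells, and 3 sebaceous markers, 1 thioesterase and 0 fructose bisphosphate genes higher in floxed control cells. Deviations from the group means correlated at -0.163 to 0.421 between samples of the same number, above 0.1 in 6 of 18 pairs, against 6 of 45 pairs of different numbers, and 6 of 13 libraries correlated best with their own number. The numbers, which no label ties to a shared mouse or day, were not taken as pairs. Leaving out 1 library gave Fbp1 -0.217 to 0.219 after Aldara, -1.47 to 0.566 untreated, -0.573 to 1.47 in the interaction and -0.737 to 0.28 over both, Acox2 -0.833 to 0.194 and Pnpla5 -0.518 to 0.461 after Aldara, and interactions of -0.382 to 0.932 for Acot5, 1.22 to 2.85 for Acox2, -2.54 to -0.284 for Pnpla5, 0.262 to 1.95 for St3gal5 and 0.984 to 2.76 for Pctp. The Pctp difference was -2.26 to -1.92 after Aldara and -4.8 to -3.03 untreated with 1 library left out. Without the libraries high in Gm10800, the 2 Il12rb2-deleted untreated libraries that remain have 0 Pctp counts, and the fitted Pctp values, 11.9 for the Aldara difference in Il12rb2-deleted cells, -10.6 untreated, 8.55 for the interaction and -6.31 over both treatments, depend on the prior count and are no bounds. Low counts in untreated libraries limit every untreated value.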
